A study of Mus musculus with 15 samples.

Results

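The 89 genes described here encode the nuclear part of the oxidative phosphorylation machinery of mitochondria. They were taken from the 24421 gene rows of 3 count tables by symbol, as every row starting with Ndufa, Ndufb, Ndufc, Ndufs, Ndufv, Uqcr, Sdha, Sdhb, Sdhc, Sdhd, Cox4i, Cox5, Cox6, Cox7, Cox8 or Atp5, without complex I assembly factors of the Ndufaf series and pseudogene symbols. The rule itself uses no measured value, but it was set with earlier results of these data known. The rule gave 38 genes for complex I, 8 for complex II, 8 for complex III, 18 for complex IV and 17 for complex V. A few of them are not subunits. Sdhaf1 to Sdhaf4 are assembly factors of complex II, Cox7a2l is a supercomplex factor, and Atp5s and Atp5sl carry the name of the ATP synthase without being part of its core.

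The cells were microglia, which are macrophages that reside in the brain. They were sorted from the forebrain of male mice by intermediate CD45 and CD11b staining. The mice were 8 to 24 weeks old, and the middle cerebral artery had been closed for 60 minutes and reopened. Wild-type C57BL/6J mice gave 1 library after sham surgery, which was the same operation without the occlusion, and 1 library each on days 1, 6, 14 and 28 after stroke. Igf1-Egfp transgenic mice, in which EGFP reports Igf1, gave 1 library of EGFP+ and 1 of EGFP– microglia on each of days 6 and 14. The Yy1 experiment had 3 floxed control libraries (Yy1flox/flox) and 3 libraries from Cx3cr1-CreER;Yy1flox/flox mice, all taken on day 6 after stroke and named controls and Yy1-deleted below. The Cre driver Cx3cr1 is expressed by microglia and by other mononuclear phagocytes. Only the Yy1-deleted mice carried Cre, and what Cre itself does cannot be told apart from what the deletion does. How Cre was induced, and how many mice went into a library, is not given in the labels used here.

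Oxidative phosphorylation makes most of the ATP of a resting cell. Complexes I and II pass electrons from NADH and succinate to ubiquinone, complex III passes them on to cytochrome c, and complex IV hands them to oxygen. The protons moved along the way drive complex V, the ATP synthase. Subunits of complexes I, III, IV and V come from both genomes of the cell, while complex II is wholly nuclear. Mitochondrially encoded subunits were not among the rows used here. Microglia that take up an inflammatory state in culture are known for a shift from this pathway towards glycolysis. YY1 is a zinc finger transcription factor known to bind near the start of many genes for mitochondrial proteins, and NRF1 and the ETS factor GABPA are the classical activators of respiratory chain genes.

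Promoters of these genes held the YY1 motif more often than those of other genes in the reference. RefSeq promoters (GRCm38.p6, from 250 bases before to 50 bases after the start) were at hand for 71 of the 89 genes. The letters AANATGGC, searched on both strands, stood in 17 of the 71 (23.9%), against 7.59% of 16522 protein-coding genes and 6.96% of all 27025 genes with a promoter of this length. The stricter AAGATGGC, which is one of the forms of the former, stood in 9 (12.7%), against 3.64% of protein-coding genes and 3.19% of all genes. The NRF1 core CGCATGCG stood in 9 (12.7%), against 2.89% and 2.07%. The ETS letters CCGGAAGT stood in 5 (7.04%), against 5.94% and 4.31%. A match is a description of the letters in this window and shows no binding. The other genes were not matched for transcript length or for a start codon inside the window.

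The 9 promoters with AAGATGGC are shown because all 9 carry it on the strand of the gene, and because of where it lies. Capitals mark the motif in each window of 30 bases, written 5′ to 3′ along the gene.
Ndufs7: aggccgaggccAAGATGGCggcgctggcgg
Ndufs4: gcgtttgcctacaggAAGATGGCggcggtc
Ndufs6: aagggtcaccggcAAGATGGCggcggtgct
Ndufa3: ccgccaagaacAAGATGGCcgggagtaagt
Ndufa9: cattgtgggagAAGATGGCggccgccgtcc
Ndufb8: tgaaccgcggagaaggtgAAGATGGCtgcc
Ndufc1: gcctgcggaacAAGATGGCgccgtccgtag
Atp5j2: accaggacttcAAGATGGCgtcactcggtg
Atp5j: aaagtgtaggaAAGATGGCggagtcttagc

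In 8 of the 9, all but Atp5j, the ATG inside the motif was the annotated start codon of the gene in GENCODE M21, and the motif began 23 to 39 bases after the transcription start. In Atp5j the motif began 88 bases before the start. The windows lie at chr10:80249462-80249491 on the plus strand for Ndufs7, the complex I subunit that carries the last iron-sulfur cluster, and at chr13:114388045-114388074 on the minus strand for Ndufs4, an accessory subunit. Those of the accessory subunits Ndufs6 and Ndufa3 lie at chr13:73328433-73328462 (minus) and chr7:3617384-3617413 (plus). Those of Ndufa9, Ndufb8 and Ndufc1, also accessory subunits, lie at chr6:126849097-126849126, chr19:44555393-44555422 and chr3:51408915-51408944, each on the minus strand. Those of Atp5j2 and Atp5j, which belong to the membrane part and the peripheral stalk of the ATP synthase, lie at chr5:145191500-145191529 and chr16:84835046-84835075, both on the minus strand. The 17 genes with a YY1 motif are taken up again beside the Yy1 comparison.

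Library totals, in M counts, were 16.8 to 52.6 for the wild-type and day 6 EGFP libraries, 23.1 and 24.6 for the day 14 EGFP libraries and 10.5 to 13.9 for the Yy1 libraries. Values are given as CPM (counts scaled to library size in M), with TMM scaling within a table. The wild-type libraries of days 14 and 28 stood apart before any comparison: they held counts for 11823 and 9886 genes, against 16009 in sham and 17321 and 17007 on days 1 and 6. Among genes at 20 CPM or more in sham, 39 had no count on day 14 and 194 none on day 28, against 0 on days 1 and 6. Of the 89 genes, 3 had no count in sham and on days 1 and 6, 11 on day 14 and 22 on day 28. The EGFP-negative and EGFP-positive libraries held counts for 15634 and 13331 genes on day 6 and for only 10892 and 12498 on day 14. All 10 microglial markers (Tmem119, P2ry12, Sall1 and others) were detected in every library of the time course, and their summed level was 35420 CPM in sham and between 9024 and 18700 CPM on the 4 days. In all of these bulk samples, fewer cells of a type and less RNA per cell cannot be told apart. Exons of 27 of the 89 genes overlap those of another gene, 25 of them on the opposite strand, and the strand setting of the counting was not given in the sources used here. A near copy among pseudogene transcripts (at least 95% identity over 200 bases) was found for 20, so their reads may have been split.

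In sham microglia the genes were expressed at a moderate level, with a median of 13.4 CPM and a sum of 1854 CPM, or 0.188% of all counts. Divided by transcript length, the 3 highest levels were those of genes for the F1 head of the ATP synthase, the part that makes ATP. Atp5c1, its central shaft, stood at 83.8 CPM per kb, the catalytic subunit gene Atp5b at 75 and Atp5a1, its non-catalytic partner, at 63.7 CPM per kb. The other F1 genes were lower, with Atp5d at 22.0 and Atp5e at 8.1 CPM per kb. The ubiquitous Cox4i1 isoform of complex IV stood at 49.6 CPM per kb and Uqcrc1, a core protein of complex III, at 37.7. The flavoprotein Sdha of complex II stood at 30.2 CPM per kb, and among the core subunits of complex I named here the values ran from 13.4 for Ndufs1 to 30.1 for Ndufs8. With 1 sham library these levels carry no replicate error. In GENCODE M21 (GRCm38), Atp5b spans chr10:128083273-128090391 on the plus strand, Cox4i1 chr8:120668222-120674207 (plus), Uqcrq chr11:53427922-53430831 (minus), Cox6c chr15:35925886-35938246 (minus) and Ndufb2 chr6:39592574-39603382 (plus).

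**Figure D1:**
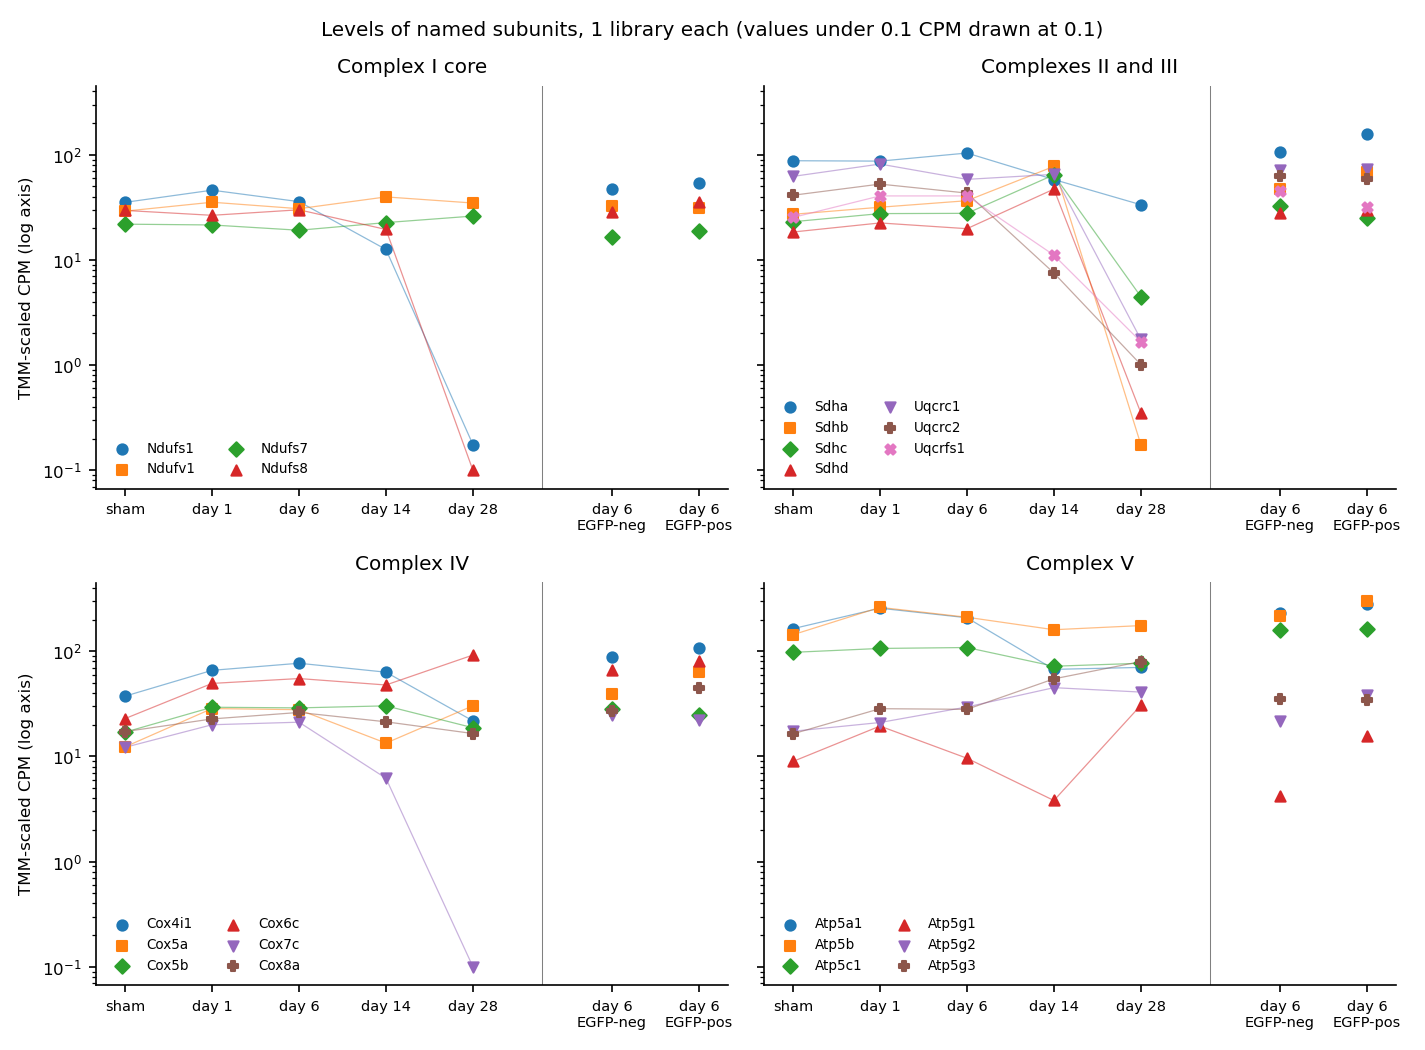
TMM-scaled CPM (log axis) of named subunits in the 5 wild-type libraries, joined by lines, and in the day 6 EGFP-negative and EGFP-positive libraries to the right of the grey line, 1 library each. Complex IV subunits lie above their sham level on days 1 and 6. On day 28 several subunits of complexes I, II and III, and Cox7c of complex IV, lie under 2 CPM.

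The first question was how the genes stood in microglia 1 and 6 days after stroke against sham. They were higher as a group on both days, by less than 2-fold for most, and complexes III, IV and V lay further above sham than complexes I and II. On day 1, 63 of the 89 had a mean of at least 10 CPM over the libraries compared, and 54 of these 63 were above sham. Their median log2 ratio was 0.52, against 0.00 over all 8567 such genes. On day 6, 58 of 63 were above sham, with a median of 0.58 against -0.09 over all 8556 genes. With a minimum mean of 50 CPM the day 6 median was 0.24, over 9 genes. There was 1 library a group, so these are values of libraries with no test. Log2 ratios are of CPM plus 1, which understates the change of low genes. All comparisons with sham share the same sham library.

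Complex IV, which reduces oxygen, showed the most even pattern. All 10 of its ubiquitous subunits were above sham on day 1 and again on day 6, with medians of 0.72 and 0.87 on the log2 scale. Cox4i1 had 37.4 CPM in the sham library, then 65.8, 76.9, 63.2 and 21.8 CPM in the libraries of days 1, 6, 14 and 28. Cox6c, a small membrane subunit, stood at 22.9, 49.4, 55.0, 47.8 and 92.0 CPM in the same order, 2.16-fold of sham on day 1 (95% Clopper-Pearson interval 2.02 to 2.32) and 2.40-fold on day 6 (2.24 to 2.58). Cox5a, a subunit on the matrix side, stood at 12.3, 28.5, 27.8, 13.4 and 30.3 CPM. Cox5b went from 17.0 CPM in sham to 29.3 on day 1 and 28.9 on day 6. Cox7c and Cox8a, both small membrane subunits, lay at 12.2 and 17.2 CPM in sham and at 21.2 and 26.2 CPM on day 6. Each of these 6 genes was thus lower in sham than on days 1 and 6. The intervals cover counting error only, and are too narrow: 74.8% to 89.3% of the counts between 1 and 20 in the wild-type libraries were even, as when both mates of a fragment are counted.

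The ATP synthase was higher in all its parts on day 1. All 4 measured genes of the F1 head, all 3 of the c-ring and all 6 of the stalk and membrane part were above sham, with median log2 ratios of 0.72, 0.76 and 0.83. Atp5b had 143.6 CPM in the sham library, then 261.5, 210.6, 160.2 and 175.4 CPM in the libraries of days 1, 6, 14 and 28. Atp5a1 stood at 163.9, 256.6, 208.2, 67.2 and 70.2 CPM, so that it was above sham on days 1 and 6 and below it later. Atp5c1 moved less, with 97.7, 106.3, 108.5, 72.0 and 76.8 CPM. The c-ring, the rotor turned by protons, is encoded by 3 genes with the same mature protein. Atp5g1 stood at 8.96 CPM in sham, 19.4 on day 1 and 9.61 on day 6, Atp5g2 at 17.3, 21.0 and 29.5, and Atp5g3 at 16.4, 28.4 and 28.0. Atp5l, a membrane subunit at 9.56, 24.8 and 22.5 CPM, was among the 3 highest ratios on both days, and it has 8 near copies. The exception among genes with a mean of at least 10 CPM was Atp5sl, at 18.5, 10.1 and 12.96 CPM the lowest ratio on both days. Atp5s, under that minimum, was also below sham, at 7.85, 3.75 and 3.82 CPM.

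Complex III was above sham in 7 of 7 genes on day 1 and 6 of 7 on day 6. Uqcrq, a small subunit without a near copy or an overlapping exon, had 10.4 CPM in sham and 24.0, 17.3, 38.1 and 28.9 CPM in the libraries of days 1, 6, 14 and 28. The Rieske iron-sulfur protein Uqcrfs1 stood at 25.3 CPM in sham and 40.6 on both days 1 and 6. The 2 core proteins were closer to sham: Uqcrc1 stood at 62.3 CPM in sham, 81.6 on day 1 and 58.3 on day 6, and Uqcrc2 at 41.2, 52.6 and 43.2.

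Complexes I and II differed least from sham. The 7 core subunits of complex I, which hold its redox groups, had a median log2 ratio of 0.23 on day 1 and 0.07 on day 6, and its accessory subunits 0.45 and 0.43. Ndufs1 stood at 35.3 CPM in sham, 46.0 on day 1 and 35.8 on day 6. Ndufv1, which binds NADH, stood at 29.1, 35.4 and 30.7 CPM, Ndufs7 at 21.9, 21.5 and 19.1, and Ndufs8 at 29.5, 26.6 and 30.0. None of these 4 differed from sham by more than 1.31-fold. The accessory subunit Ndufa12 had the highest ratio on day 1, at 9.11 CPM in sham and 29.4 on day 1, and stood at 15.2 on day 6. Ndufa4, now counted as a subunit of complex IV, stood at 13.4, 29.1 and 23.6 CPM. In complex II, Sdha stood at 87.7, 87.0 and 103.8 CPM, the iron-sulfur subunit Sdhb at 27.1, 31.7 and 36.6, and the membrane anchors Sdhc and Sdhd at 23.1, 27.6 and 27.7 and at 18.4, 22.5 and 19.8.

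Few single genes passed the size rule, a log2 ratio of at least 1 either way. On day 1, 8 of 63 were higher by it and 0 lower, against 11.6% higher and 9.63% lower over all genes. On day 6, 6 of 63 were higher and 0 lower, against 9.62% and 2.71%. The shares higher were near those of all genes. Those of day 1 were Ndufa12, Atp5l, Cox5a, Uqcrq, Cox6c, Ndufa4, Atp5g1 and Ndufa2, and those of day 6 were Cox6c, Atp5l, Cox5a, Ndufa2, Atp5o and Cox4i1. Just inside the rule lay Cox4i1 on day 6 at 1.02, and just outside it Cox6b1 at 0.996. The lowest ratios on day 1 after Atp5sl were those of Cox7a2l at -0.48 and Ndufa8 at -0.44, and on day 6 those of Ndufs7 at -0.18 and Uqcrc1 at -0.09.

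**Figure D2:**
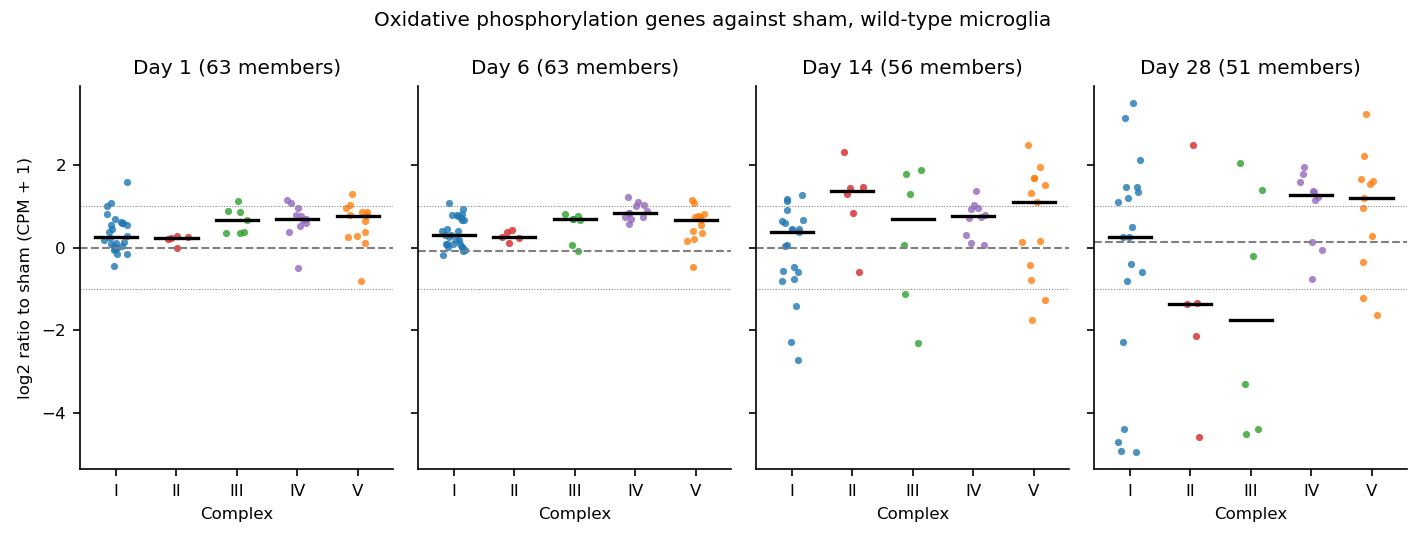
Log2 ratio to sham (CPM + 1) of each gene with a mean of at least 10 CPM, by complex, 1 library per day. Black bars are medians of a complex, the dashed line is the median of all such genes and dotted lines mark the size rule. On days 1 and 6 complexes III, IV and V lie above I and II, and on days 14 and 28 the points spread over several log2 units.

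Other measures moved along with these ratios, and their part in them was not tested. Oxidative phosphorylation genes are short, with a median transcript length of 810 bases among those measured on day 1, against 2942 over all genes. The 25% of all genes with the shortest transcripts had a median log2 ratio of 0.10 on day 1 and 0.01 on day 6, while the 54 and 55 members among them had medians of 0.57 and 0.68. Summed levels of 8 neutrophil markers were 40.2 CPM in sham, 1736 on day 1 and 276 on day 6, and those of 8 monocyte markers 61.7, 1608 and 1442. Summed endothelial and mural markers were 263.8 CPM in sham, 716.7 on day 1 and 3237 on day 6. None of the 8 neutrophil markers and none of the 12 endothelial and mural markers was at 0 in these libraries. T and natural killer cell markers summed to under 1 CPM in all 3.

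Related mitochondrial lists differed in their shift. Of 17 measured assembly factors, 0 passed the size rule on either day, with medians of 0.14 and -0.20. The 7 measured electron carriers had medians of 0.68 on day 1 and 0.17 on day 6. Among them Gpd2, the glycerol phosphate dehydrogenase of the inner membrane, passed it on both days, at 13.03 CPM in sham, 34.5 on day 1 and 43.1 on day 6. In the TCA cycle and pyruvate dehydrogenase list, Mdh2 (malate dehydrogenase) was higher on day 1, at 95.2 against 43.8 CPM, and Idh2 (the NADP-dependent isocitrate dehydrogenase) was lower on both days, at 68.5 CPM in sham, 33.1 on day 1 and 32.1 on day 6. The list's median over 18 genes was 0.48 on day 1 and 0.16 on day 6. Regulators of mitochondrial biogenesis lay slightly below sham, with medians of -0.20 and -0.26 over 11 genes. Carriers of nucleotides and phosphate had medians of 0.52 and 0.36 over 8 genes, and the uncoupling protein gene Ucp2 stood at 334.3 CPM in sham and 808.3 on day 1. Mitochondrial ribosomal genes had a median of 0.30 over 42 genes on day 1 and -0.01 over 35 on day 6, and cytosolic ribosomal genes 0.74 and 0.84 over 72.

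Glycolysis genes stood further above sham than the subunits on day 1. Of 19 measured, 12 passed the size rule upwards and 2 downwards, with a median of 1.12. Pkm (pyruvate kinase) stood at 155.7 CPM in sham and 992.1 on day 1, Pgk1 (phosphoglycerate kinase) at 32.7 and 161.6, and Pfkp (a phosphofructokinase) at 3.77 and 32.0. On day 6, 5 of 18 were higher and 0 lower, with a median of 0.68, and the glucose transporter gene Slc2a1 stood at 481.0 CPM against 67.3 in sham. Slc2a1 is also strongly expressed in brain endothelium, whose markers were higher in this library. The part of endothelial cells in its level was not tested.

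The libraries of days 14 and 28 gave values that scattered widely and in both directions. On day 14, 56 of the 89 were measured and 41 were above sham, with a median of 0.62 against -0.01 over all 8738 genes. That median was 0.33 with a minimum mean of 1 CPM and 0.16 with one of 50 CPM. By the size rule 19 were higher and 7 lower, against 22.0% and 19.4% of all genes. On day 28, 51 were measured and 30 were above sham, with a median of 0.49 against 0.14 over 7942 genes, and 24 were higher and 14 lower, against 26.5% and 23.8%. So a large share of all genes passed the rule on these days, in either direction.

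Within complexes II and III single genes lay far apart. In complex II on day 14, Sdhb stood at 77.5 CPM, Sdhc at 64.4 and Sdhd at 47.1, each above its sham level, and Sdha stood at 58.1, below it. On day 28 they stood at 0.176, 4.48, 0.351 and, for Sdha, 33.5 CPM, all below sham. In complex III, Uqcrh and Uqcrb, small subunits, stood at 63.7 and 68.6 CPM on day 14 while Uqcrc2 stood at 7.51 and Uqcrfs1 at 11.1. On day 28 Uqcrh stood at 108.1 CPM and Uqcrc1 at 1.76, Uqcrc2 at 1.01 and Uqcrfs1 at 1.67.

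Among the core subunits of complex I, Ndufs1 stood at 12.6 CPM on day 14 and 0.176 on day 28, and Ndufs8 at 19.5 and no count at all. Ndufv1 and Ndufs7 stayed near their sham levels, at 39.7 and 34.8 CPM and at 22.6 and 26.1. The highest ratios on day 28 were those of Ndufb9, at 110.1 CPM against 8.87 in sham, Atp5e, at 40.3 against 3.41, and Ndufa6, at 129.5 against 13.7. Ndufa6 had no count on day 14. The highest ratios on day 14 were those of Atp5l, at 58.4 CPM, Sdhaf4, at 31.0 against 5.45, and Atp5s, at 33.5 against 7.85, and the lowest those of Ndufb5, at 2.61 against 22.8, Uqcrc2, and Ndufs4, at 3.70 against 21.8. Atp5s and Sdhaf4 had no count on day 28. In complex IV all 10 genes with a mean of at least 10 CPM on day 14 were above sham, with a median of 0.77. On day 28, 8 of 10 such genes were above sham, with a median of 1.29. Cox7c missed this minimum, at 12.2 CPM in sham, 6.20 on day 14 and 0.0439 on day 28.

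The same libraries differed in what they detected and in other cells' markers, and the part of either in these values was not tested. Requiring at least 10 counts in both libraries, an alternative chosen after seeing the data, left 47 genes on day 28. The median went from 0.49 to 1.097. Every measured gene had more counts than this in sham, so the filter could only remove genes low on day 28. It removed Ndufs1 and Sdhb, at 4 counts each on day 28, and Ndufs8 and Ndufab1, at 0. The direction of this move was thus set by the filter. With a minimum mean of 1 CPM in place of 10, the median over 80 genes was -0.78 and 39 were lower, so the sign on day 28 depends on this minimum. The shortest 25% of all genes had a median of 0.67 on day 28 and the longest 25% one of -0.03. Endothelial and mural markers summed to 5782 CPM on day 14 and 31.2 on day 28, against 263.8 in sham. Neutrophil markers summed to 11.1 and 1885 CPM, with 4 of 8 and 1 of 8 at 0, dendritic cell markers to 101.6 and 601.1, against 17.5 in sham, and monocyte markers to 2135 and 2016.

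The wider lists scattered in the same libraries. On day 14, 5 of 16 measured assembly factors were higher and 4 lower, among them Lyrm7 of complex III at 24.7 against 0.881 CPM in sham and Foxred1 of complex I at 0.653 against 20.5. On day 28, 8 of 15 were higher and 5 lower. Idh2 stood at 16.8 CPM on day 14 and 1.14 on day 28, and Gpd2 at 91.8 CPM on day 14. The mitochondrial RNA polymerase gene Polrmt stood at 22.3 CPM in sham, 2.94 on day 14 and no count on day 28. Slc2a1 stood at 586.7 CPM on day 14 and 0.614 on day 28, the days on which endothelial markers were highest and lowest among the wild-type libraries. A link between them was not tested.

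The next question was how the genes differ between microglia with and without the Igf1 reporter signal. EGFP-positive libraries lay slightly higher on both days, by much less than 2-fold. On day 6, 71 of the 89 had a mean of at least 10 CPM and 50 were higher in EGFP-positive cells, with a median log2 ratio of 0.26 against -0.03 over all 8515 genes. On day 14, 55 of 78 were higher, with a median of 0.31 against 0.02 over 8094 genes. The 4 libraries of these comparisons are distinct. Those of day 14 held counts for fewer genes than those of day 6. Of 70 genes measured on both days, 34 lay above 0 on both (48.6%), against 1870 of 6936 genes (27.0%). Another 6 lay below 0 on both days, 15 were above only on day 6 and 15 only on day 14. Members were above 0 more often on each day alone, at 70.4% and 70.5% against 48.0% and 50.9% of all genes. The share above on both days therefore does not show that the same genes recurred. By the size rule 3 were higher and 1 lower on day 6, against 7.50% and 11.2% of all genes, and 3 were higher and 0 lower on day 14, against 11.0% and 10.7%.

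Fitted over both days with day as a further term, 0 of the 81 members tested were called in either direction by edgeR's quasi-likelihood test (adjusted p under 0.05). The background was 0% of 12842 genes higher and 0% lower. At an unadjusted p under 0.05 there were 193 genes, 0 of them members. DESeq2 called 24 genes higher and 12 lower, and limma-voom 0, again with 0 members. This fit had 1 residual degree of freedom. Day, table and sequencer change together here and cannot be told apart.

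**Figure D3:**
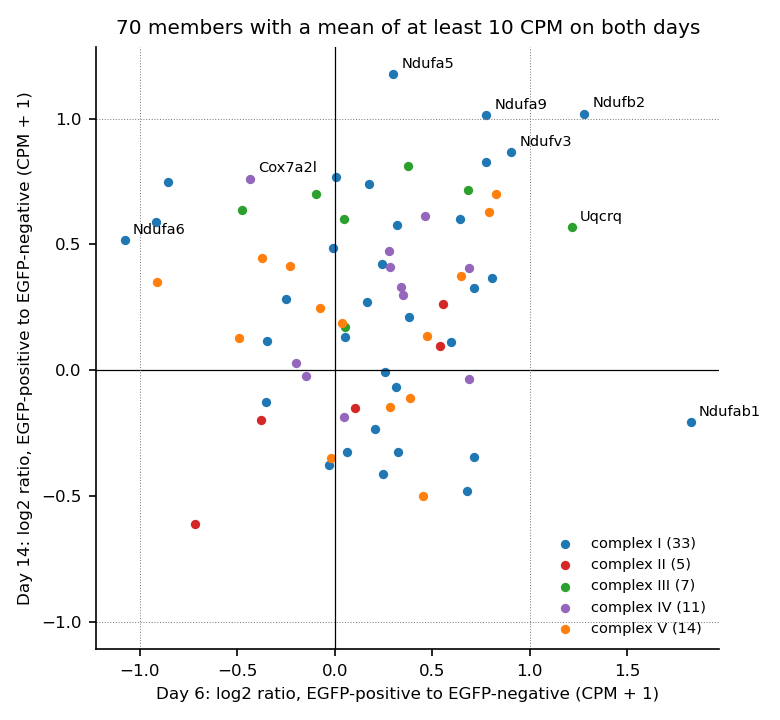
Log2 ratio of EGFP-positive to EGFP-negative microglia (CPM + 1) on day 6 (x axis) and day 14 (y axis), 1 point per gene, coloured by complex, with dotted lines at the size rule. Of 70 genes 34 lie in the upper right quadrant, and Ndufb2 alone passes the rule on both days.

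Of the 6 passes of the size rule upwards over the 2 days, all but that of Uqcrq were in complex I. Ndufb2, an accessory subunit, was the only gene of the 89 higher by the size rule on both days, with day 6 values of 12.04 CPM without and 30.7 CPM with EGFP and day 14 values of 7.58 and 16.4 CPM. Its exons overlap those of Gm42420 on the same strand and those of Braf and Gm16272 on the opposite strand. Ndufv3, which belongs to the NADH-binding part, followed at 16.8 and 32.3 CPM on day 6 and 20.2 and 37.6 on day 14. Ndufa9, one of the genes with the motif at its start codon, stood at 17.0 and 29.9 CPM on day 6 and 76.8 and 156.0 on day 14, and Ndufa5 at 11.1 and 13.9 and at 6.32 and 15.5. The largest ratio on day 6 was that of Ndufab1, the mitochondrial acyl carrier protein, at 12.96 and 48.5 CPM, and on day 14 it stood at 38.5 and 33.2, the opposite order. Ndufa6 was lowest on day 6, at 28.0 and 12.8 CPM, and stood at 23.2 and 33.6 on day 14. Ndufa8 and Atp5h were next lowest on day 6, at 20.6 and 10.4 and at 88.4 and 46.5 CPM.

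The core subunits were closer between states. Ndufs7 stood at 16.4 and 18.7 CPM on day 6 and 52.4 and 88.2 on day 14, and Ndufv1 at 32.2 and 31.5 and at 84.7 and 64.9. Sdha had the higher CPM with EGFP on each day, at 106.4 and 156.6 and at 263.8 and 316.7 CPM. Of the other complex II subunits, Sdhb was higher on both days, Sdhc lower on both, and Sdhd mixed.

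Complex III was the most uniform on day 14, with 8 of 8 genes higher and a median of 0.62, but on day 6 its median was 0.05 with 5 of 7 higher. Uqcrq stood at 19.5 and 46.5 CPM on day 6 and 25.5 and 38.3 on day 14. In complex IV, Cox4i1 stood at 88.3 and 107.4 CPM on day 6 and 149.8 and 208.5 on day 14, Cox5a at 38.9 and 63.3 and at 45.1 and 60.1, and Cox6c at 66.1 and 80.4 and at 46.0 and 61.3. In complex V, Atp5b stood at 217.1 and 301.8 CPM and at 561.1 and 617.3, and Atp5d, the F1 subunit on the central stalk, at 27.9 and 50.3 and at 69.6 and 113.8. Atp5a1 stood at 231.0 and 280.9 CPM on day 6 and, in the other order, at 459.7 and 414.8 on day 14. The lowest ratios on day 14 were those of Sdhaf2 at -0.61, Atp5sl at -0.50 and Ndufb5 at -0.48.

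Other lists set these small shifts in context. Cytosolic ribosomal genes lay lower in EGFP-positive cells on day 6, with a median of -0.55, and higher on day 14, with one of 0.42. Mitochondrial ribosomal genes had medians of 0.00 and 0.17. Glycolysis genes had a median of -0.25 on day 6, where Tpi1 (triose phosphate isomerase) was higher and Pfkp lower by the size rule, and of 0.70 on day 14, where 7 of 20 were higher, among them Hk1 (hexokinase) at 64.4 against 8.56 CPM. In the TCA list 0 of 18 passed the rule on day 6 and 2 of 19 were higher on day 14, Pcx (pyruvate carboxylase) and Ogdh. Assembly factors had medians of 0.18 and -0.07.

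Markers of other cells differed between the EGFP states, and their part in these ratios was not tested. On day 6, neutrophil markers summed to 132.5 CPM in EGFP-positive and 9927 in EGFP-negative cells, monocyte markers to 1510 and 5049, and immediate early and heat shock genes to 3944 and 11600. The latter list was also lower with EGFP on day 14, at 19770 against 24700 CPM. On day 14 the neutrophil sum was 567.4 CPM in EGFP-positive cells, with all 8 markers at 0 in EGFP-negative cells, and the endothelial and mural sum 397.1 and 30.7. That EGFP-negative library held counts for 10892 genes, the fewest among the EGFP libraries. Microglial markers summed to 9796 and 10570 CPM on day 6 and to 47220 and 48380 on day 14.

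Isoforms restricted to other tissues were near the limit of detection. Cox4i2, Cox6b2, Cox7a1 and Cox8b, which belong to lung, testis or muscle forms of complex IV, stayed at or under 2.19 CPM in all 9 libraries of the time course and EGFP tables, and Cox7b2 and Cox8c had no count in any of them. Cox6a2, the heart and muscle form, was at or under 1.81 CPM in the time course table but had 9.97 CPM in the EGFP-negative and 16.8 CPM in the EGFP-positive library of day 14. Its exons overlap those of Itgad, an integrin gene on the opposite strand. The strand setting of the counting was not given, so reads in the overlap may come from either gene. Ndufa4l2, a paralog of Ndufa4, was highest on day 6 at 3.53 CPM. Cox7a2l, which helps to join complexes into supercomplexes, had 39.9 CPM in sham and 28.3, 72.4, 76.9 and 104.8 CPM in the libraries of days 1, 6, 14 and 28. Ndufs5, a subunit of the membrane arm of complex I, had 0 counts in 13 of the 15 libraries and 13 and 1 in the other two. A transcribed near copy, BC002163, had up to 84 counts, so this zero does not show that the gene is silent.

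The last question was whether loss of Yy1 went with a change of the genes on day 6. The motif of this factor stood in 17 of the 71 promoters at hand. Yy1 itself stood at 75.9, 51.0 and 57.8 CPM in the controls and at 32.4, 28.8 and 38.7 CPM in the Yy1-deleted libraries, so the groups did not overlap. Its log2 fold change was -0.88 (SE 0.28), with an adjusted p of 0.128 in edgeR's quasi-likelihood test, which does not pass 0.05. Which exons were floxed is not given in the labels used here, and reads of the part left in place would still be counted.

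None of the oxidative phosphorylation genes was called in the Yy1 comparison. Of the 89, 82 passed the filter on low counts and 0 were higher and 0 lower by edgeR's quasi-likelihood test at an adjusted p under 0.05. Over all 12387 genes tested 1.55% were called higher and 1.05% lower. DESeq2 and limma-voom also called 0. At an unadjusted p under 0.05 there were 5 members, or 6.098%, against 14.11% of all genes. The median log2 fold change was 0.02 over the members and -0.02 over all genes, and that of the members was -0.080 when scaled by totals and -0.087 with limma-voom. In 6 members every deleted library was above every control and in 6 every one was below, against 9.45% and 11.6% of all genes.

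Summed over a complex the groups overlapped for all but complex IV. The 89 genes summed to 1975, 1933 and 1966 CPM in the controls and to 1986, 2063 and 1851 CPM in the Yy1-deleted libraries, or 1958 ± 22.0 and 1967 ± 107 CPM (SD, n = 3 each). Complex I summed to 557.1 ± 16.1 CPM in controls and 553.5 ± 73.1 in deleted libraries, complex II to 205.0 ± 7.72 and 193.5 ± 4.95, and complex III to 208.6 ± 18.1 and 241.2 ± 33.5. Complex IV summed to 284.1 ± 13.7 and 329.2 ± 29.7 CPM and was the only complex with every deleted library above every control, at 329.4, 358.8 and 299.4 against 268.3, 290.7 and 293.3. Complex V summed to 703.3 ± 36.0 and 649.2 ± 37.6 CPM. The median coefficient of variation of the 58 members with at least 10 CPM was 0.19 in controls and 0.30 in deleted libraries, against 0.17 and 0.25 over 8602 genes.

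**Figure D4:**
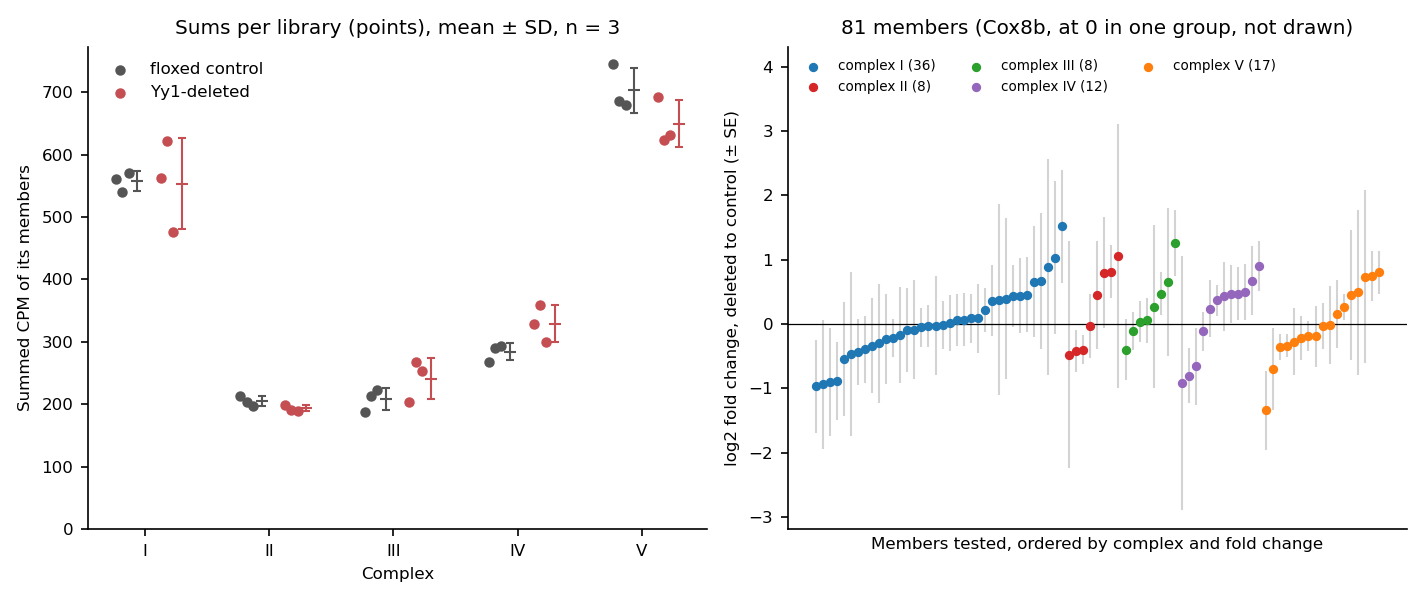
Left, summed CPM of each complex in the 3 floxed control and 3 Yy1-deleted libraries (points) with mean ± SD. Right, log2 fold change ± SE of 81 members, ordered by complex. Sums of the groups overlap for all complexes but IV, and fold changes scatter around 0 with none called.

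The 5 members with the smallest p-values went both ways. Uqcrq stood at 13.98, 14.95 and 11.5 CPM in the controls and 15.8, 17.99 and 62.5 in the deleted libraries, with a log2 fold change of 1.25 (SE 0.51). Without deleted library 3 it was 0.33. Atp5d stood at 22.7, 24.0 and 21.5 CPM against 33.8, 38.5 and 46.2, a log2 fold change of 0.80 (SE 0.33). Cox6a1, the ubiquitous form of that complex IV subunit, stood at 17.3, 16.6 and 13.7 CPM against 28.9, 26.6 and 32.8, a log2 fold change of 0.89 (SE 0.39). These 3 genes were higher in each deleted library than in each control. Cox8b, an isoform of muscle, stood at 1.51, 1.04 and 1.12 CPM in controls and had no count in any deleted library, which is at least 4.41-fold lower with 3 counts per library as the floor. Atp5sl stood at 23.3, 13.9 and 22.6 CPM against 15.1, 4.66 and 3.74, a log2 fold change of -1.34 (SE 0.62). The adjusted p of these genes in edgeR's test ran from 0.262 to 0.333.

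For most core subunits the interval of the difference was wide. The most abundant were Atp5b, at 168.4, 150.2 and 139.7 CPM in controls and 140.5, 113.4 and 107.9 in deleted libraries, and Atp5a1, at 177.2, 158.3 and 162.9 against 157.7, 137.0 and 92.3. Their log2 fold changes were -0.34 (approximate 95% interval -0.69 to 0.02) and -0.36 (-0.75 to 0.03). Atp5c1 stood at 94.4, 99.3 and 96.3 CPM against 112.2, 95.2 and 138.8, so the 3 largest F1 genes did not share a direction. Sdha stood at 125.5, 100.8 and 78.4 CPM against 79.6, 87.3 and 63.7, with -0.40 (-0.84 to 0.05). Cox4i1 stood at 57.9, 52.0 and 59.0 CPM against 59.2, 88.7 and 69.4, with 0.37 (-0.11 to 0.84), and Cox7c at 23.4, 23.0 and 31.0 against 15.3, 18.6 and 10.4, with -0.80 (-1.64 to 0.04). Ndufs1 stood at 50.5, 37.5 and 38.2 CPM against 35.7, 36.5 and 36.2, with -0.22 (-0.80 to 0.36). Changes of up to about these bounds were not excluded at this depth, and a p that misses the threshold does not show equal levels.

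The genes are given here by their promoter motif. Of the 17 with a YY1 motif, all tested, 6 had a log2 fold change above 0 and the median was -0.17. Of the 51 tested genes with a promoter but no such motif, 29 were above 0 and the median was 0.08. Among the 9 with AAGATGGC the median was -0.17 with 4 above 0, and 0 were called. On day 6 after stroke in the wild type, those with and without the YY1 motif had median log2 ratios to sham of 0.45 and 0.58. These are descriptions with no test.

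The related lists gave few calls in the Yy1 comparison. Of 38 assembly factors, 9 electron carriers, 19 TCA genes, 77 mitochondrial and 74 cytosolic ribosomal genes tested, 0 were called by edgeR in either direction, and likewise 0 of 13 biogenesis regulators and 0 of 8 nucleotide and phosphate carriers. Of 20 glycolysis genes 2 rose. Hk2, a hexokinase that can dock onto mitochondria, stood at 208.5, 260.2 and 212.9 CPM in controls and 444.6, 412.4 and 392.4 in deleted libraries, and Ldha, lactate dehydrogenase A, at 101.1, 108.4 and 101.4 against 181.6, 204.1 and 138.1. Both groups of values were fully separate.

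The cell markers moved between the Yy1 groups as well, and their part in the values above was not tested. All 10 microglial markers rose, and their sum went from between 15320 and 16530 CPM in controls to between 24490 and 26520 CPM in deleted libraries. Of 8 monocyte markers Chil3 and F13a1 fell, with sums of 877.1 to 1272 CPM in controls and 619.5 to 740.6 in deleted libraries. Endothelial and mural markers summed to between 525.3 and 792.1 CPM and between 380.5 and 514.6 CPM, and neutrophil markers to between 187.9 and 255.8 and between 176.5 and 251.0. Among immediate early and heat shock genes Fos, Hspa1a and Hspa1b rose. The controls held counts for 13835 to 14532 genes and the deleted libraries for 12184 to 13009.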

How the data were processed

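RNA-seq of sorted mouse microglia was analysed from 3 deposited tables with the same 24421 gene rows and 15 libraries. Per the submitters' processing notes the tools were STAR, featureCounts and edgeR, with builds mm10 and GRCm38, and their versions are not given in the sources used here. The time course table, with the day 6 EGFP libraries, and the day 14 EGFP table hold whole read counts as deposited by the authors. The Yy1 table, as deposited by the authors, holds fractional values, taken to be the estimated count of each gene without normalization; how the authors made them is not given in the sources used here. They were rounded for tests. Per the labels' protocols, an Ovation SoLo kit was used, and the day 14 EGFP libraries were sequenced on another Illumina instrument than the others. Groups come from the sample titles, 0 columns were left unused, and 0 pairs of libraries were identical.

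The 3 Yy1 libraries a group, described as biological replicates, were compared with edgeR 4.0.16 (limma 3.58.1, R 4.3.3): filterByExpr, TMM, the two-sided quasi-likelihood F-test and Benjamini-Hochberg adjustment over all genes tested, threshold 0.05. SEs were derived from each fold change with its F statistic. Comparisons of 1 library each give log2 ratios of TMM-scaled CPM plus 1, over genes with a mean of at least 10 CPM, with no test. Tables were scaled apart. DESeq2 1.42.0 and limma-voom were alternatives. Near copies were sought with BLAST 2.17.0+ in GENCODE M21. The procedure was tested on simulated data with less spread between replicates than the Yy1 libraries, so that test does not show its power here.

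Genes named are fixed core subunits and isoforms, in each comparison the 3 members at either end of the ratios, and the 5 smallest p in the Yy1 comparison, with up to 3 genes of other lists. Uqcrh, Uqcrb, Ndufv3 and members given beside these were chosen after their values were seen. Members and lists were chosen with earlier results of these data known. The values of 1 member are not reported here.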

Additional observations from a re-analysis of the deposited data

How the results depend on the processing

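Of 852 alternatives over 124 values, 673 concerned single genes: 646 kept their side of the threshold, 27 kept direction only and 0 reversed. In comparisons of 1 library each, a sign change of a gene short of the threshold under both settings was counted as kept. With a pseudocount of 5 CPM, 2 members were higher on day 1 (median 0.39) and 1 on day 6, the day 14 median was 0.50, and 0 were lower in the EGFP comparison of day 6 and 0 higher in that of day 14. With a minimum mean of 50 CPM, 0 members were higher on day 1 (median 0.38), 1 on day 6 (median 0.24), 2 on day 14 with 1 lower (median 0.16) and 7 on day 28 with 2 lower (median 1.41). In the EGFP comparisons 0 were then higher and 0 lower on day 6 and 1 was higher on day 14. With a minimum of 1 CPM, 10 were higher on day 6, 18 were lower on day 14 (median 0.33), 4 were lower in the EGFP comparison of day 6, and 39 were lower on day 28, where the median changed sign to -0.78. DESeq2's size factors gave medians of 0.83 on day 14 and 0.85 on day 28. Scaling by totals gave 0.77 on day 14 and, for EGFP on day 14, 0.21 with 1 member higher. At least 10 counts in both libraries, chosen after seeing the data, gave 1.097 on day 28, where this filter could only remove genes low on that day. The cause of the other shifts was not tested.

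In the Yy1 comparison 0 members were called under each alternative run, and 0 to 0 when 1 library was left out. The median was -0.080 with total scaling, -0.087 with limma-voom and, leaving out single libraries, -0.19 to 0.12. Same-numbered Yy1 libraries correlated at -0.008, -0.048 and -0.015 in their deviations, so the numbers are not taken as pairs. The replicate block gave a median of -0.081, 0 called members and 413 called genes, against 322 without it. DESeq2 called 707 genes, limma-voom 481, and the fit without a filter 575. Depth and 3 libraries a group limit low members, and no value of the time course has a replicate.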
